A study of Drosophila melanogaster with 6 samples.

Results

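The genes of glycolysis and lactate dehydrogenase were followed in *Drosophila* leg discs at the onset of metamorphosis. The 10 genes, out of 15132 genes counted, were Pgi, Pfk, Tpi, Gapdh1, Gapdh2, Pgk, Pglym78, Eno, Pyk and Ldh. They were taken from a list of enzymes, which was chosen with earlier results of these data known. Each gene is the sum of its FlyBase transcripts. Leg discs are epithelial sacs of the larva that form the adult legs. They were dissected 2 hours after pupal formation (2h APF) and from wandering larvae before the ecdysone peak (wL3), and polyA+ RNA was sequenced in 3 libraries per stage. The flies of both groups carried white [1118] and no treatment is named for either. How many animals or discs entered a library, and of which sex, is not given in the sources used here, so p-values measure the spread between these libraries, which may be technical. Embryos are mentioned in the protocol for RNA extraction that was submitted with the data, but all other labels and the study's methods name leg discs.

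Glycolysis breaks glucose down to pyruvate in the cytosol and yields ATP and NADH. Lactate dehydrogenase turns pyruvate into lactate and gives back NAD+, which the Gapdh step needs to go on. In *Drosophila*, Ldh is also known as ImpL3, a name from a screen for ecdysone-inducible genes of imaginal discs, and glycolytic genes of fly embryos and larvae are known targets of the nuclear receptor ERR.

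The libraries held between 24395318 and 30880112 estimated counts at 2h APF and between 27514509 and 33373176 at wL3, of which 96.4% to 96.6% came from targets matched to genes. The 13 leg disc markers were all detected at both stages. Their summed level in TPM (transcript abundance per length, scaled to the same total in every library) was 1168 to 1208 at 2h APF and 1299 to 1312 at wL3. In TPM, 8 of the 13 were lower at 2h APF without overlap, 1 was higher and 4 overlapped. Among all genes tested, 40% were lower and 33.3% higher without overlap in CPM. Markers of other tissues were in part higher at wL3. The 6 fat body markers summed to 98.9 to 403 TPM at 2h APF, against 23.7 TPM in wL3 replicate 1 and 1342 and 2247 TPM in wL3 replicates 3 and 2. The 11 muscle markers summed to 53.7 to 56.9 TPM at 2h APF and 66.7 to 244 TPM at wL3, with Tm2 at 3 counts or fewer in each 2h APF library. By edgeR at an adjusted p under 0.05, 8 of the 11 were lower beyond 1 log2 unit (8.9% of all genes tested) and 3 did not pass. Their median log2 fold change (2h APF over wL3) was -5.51, a larger difference than that of the sums. The 5 glue genes of the salivary gland summed to 0.718 to 1.18 TPM at 2h APF, where each was at 3 counts or fewer, and to 187 to 548 TPM at wL3. The 5 hemocyte markers summed to 6.35 to 9.59 TPM at 2h APF and 50.5 to 109 TPM at wL3. In such bulk samples, fewer cells of a type and less RNA per cell cannot be told apart.

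Most glycolytic genes rose at 2h APF, and Ldh rose by far more than the rest. By edgeR's quasi-likelihood test at an adjusted p under 0.05, 8 of the 10 genes were higher at 2h APF, against 30.6% of all 8942 genes tested. Of the 10, 1 gene (Gapdh1) was lower, against 36.9% of all genes, and Pyk passed in neither direction. Only Ldh and Pglym78 were also beyond 1 log2 unit, which 9.74% of all genes passed in the higher and 8.9% in the lower direction. In CPM, all 2h APF libraries were above all wL3 libraries for 8 of the 10 genes (33.3% of all genes tested) and below them for 1 (40% of all). The median log2 fold change of the 10 genes (2h APF over wL3) was 0.52, against -0.04 for all genes tested. With libraries scaled by their totals, 7 of the 10 genes were higher and 2 lower, while over all genes 2209 were higher and 4129 lower, against 2734 higher and 3296 lower under TMM. With wL3 replicate 1 as the only wL3 library, the log2 fold change was 2.86 for Ldh, 1.35 for Pglym78 and -0.53 for Gapdh1. It was 0.59 for Tpi, 0.58 for Eno, 0.49 for Gapdh2, 0.48 for Pfk and 0.32 for Pgi. Pgk had 0.10 and Pyk -0.00, and the median of all genes tested was -0.04. That setting was chosen after seeing the data, for the low fat body and muscle sums of this library. In tests under that setting, the spread comes from the 2h APF libraries alone, and the lone wL3 library is assumed to vary like them. Its glue, hemocyte and muscle sums (187, 50.5 and 66.7 TPM) were still above those of every 2h APF library.

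**Figure D1:**
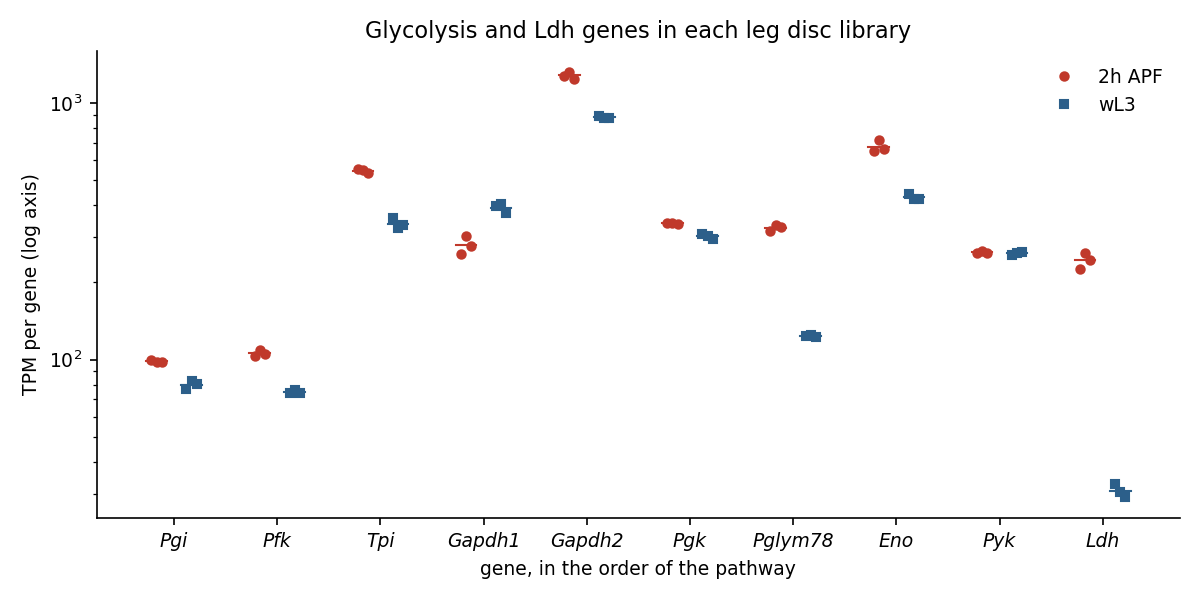
Level of each gene in TPM (log axis) in the 3 libraries of 2h APF (circles) and the 3 of wL3 (squares), with genes in the order of the pathway and lines at the stage means. Ldh lies between 227 and 261 TPM at 2h APF and between 29.3 and 32.8 TPM at wL3, while the Pyk values of the stages overlap.

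The first enzymes of the pathway rose modestly. Pgi (FBgn0003074, chr2R:8910900-8914069 on BDGP6.54, reverse strand), the isomerase of glucose phosphate, had 100.0, 97.9 and 97.7 TPM at 2h APF, against 77.0, 82.6 and 80.0 TPM at wL3. The lowest 2h APF library was above the highest wL3 library, and the log2 fold change was 0.30 ± 0.032 (SE, edgeR adjusted p = 0.000136). Pfk (FBgn0003071, chr2R:10109740-10117457, forward strand), phosphofructokinase, which commits sugar to the pathway, had 103, 109 and 105 TPM at 2h APF, against 74.1, 76.0 and 73.9 TPM at wL3. All 2h APF values again exceeded all wL3 values, by a log2 fold change of 0.50 ± 0.034 (edgeR adjusted p = 1.6e-05).

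Tpi (FBgn0086355, chr3R:30132981-30134599, reverse strand), triose phosphate isomerase, which interconverts the pair of triose phosphates, had 553, 548 and 533 TPM at 2h APF, against 355, 326 and 334 TPM at wL3. It was among the more abundant of the 10 genes at both stages, did not overlap between them, and rose by a log2 fold change of 0.69 ± 0.044 (edgeR adjusted p = 1.3e-05).

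Gapdh1 and Gapdh2 encode glyceraldehyde phosphate dehydrogenase, the NADH-yielding step, and moved in opposite directions. Gapdh2 (FBgn0001092, chrX:15868145-15869661, forward strand) had 1281, 1322 and 1242 TPM at 2h APF, against 894, 877 and 876 TPM at wL3. It was the most abundant of the 10 genes at both stages and rose by a log2 fold change of 0.54 ± 0.035 (edgeR adjusted p = 1.4e-05). Gapdh1 (FBgn0001091, chr2R:7791901-7793380, reverse strand) had 259, 303 and 277 TPM at 2h APF, against 395, 405 and 373 TPM at wL3. The highest 2h APF value was below the lowest wL3 value, and Gapdh1 fell with a log2 fold change of -0.47 ± 0.070 (edgeR adjusted p = 0.000832). The paralogs share sequence, and how reads were split between them by kallisto makes each of the levels uncertain.

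Summed over both genes, Gapdh came to 1561 ± 56.7 TPM at 2h APF and 1274 ± 21.3 TPM at wL3 (SD, n = 3 libraries each, exact permutation p = 0.1, two-sided, the smallest that 3 against 3 can give). The Gapdh1 share of this sum was 16.8%, 18.7% and 18.2% at 2h APF, against 30.7%, 31.6% and 29.9% at wL3. The shares did not overlap, and their means differed by -12.8 percentage points (2h APF minus wL3, n = 3 each, exact permutation p = 0.1).

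Pgk (FBgn0250906, chr2L:2746880-2753068, reverse strand), phosphoglycerate kinase, which makes ATP, had 342, 341 and 339 TPM at 2h APF, against 309.7, 304 and 296 TPM at wL3. The stages did not overlap, but the difference was small, with a log2 fold change of 0.16 ± 0.033 (edgeR adjusted p = 0.00337). The call was lost when libraries were scaled by their totals instead of by TMM (0.05, edgeR adjusted p = 0.155) and with wL3 replicate 1 as the only wL3 library (0.10, edgeR adjusted p = 0.101). The gene shares 65 exonic bases with Cwc25 on the opposite strand, and whether the counting used strand is not given in the sources used here.

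Pglym78 (FBgn0014869, chr3R:29148248-29149901, forward strand), phosphoglycerate mutase, which moves the phosphate group within phosphoglycerate, rose more than any member of the list but Ldh. It had 316, 335 and 328 TPM at 2h APF, against 124, 125 and 122 TPM at wL3. The 3 wL3 libraries differed by less than 3 TPM, and all 2h APF libraries lay far above them. The change was 2.63-fold, a log2 fold change of 1.39 ± 0.040 (95% interval 1.30 to 1.49, edgeR adjusted p = 1.5e-06), and 7.22% of all genes tested had a larger one. The related gene Pglym87 had 0 counts in every library, and how shared reads were split between the paralogs is not known.

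Eno (FBgn0000579, chr2L:1724768-1729636, reverse strand), enolase, had 651, 718 and 660.4 TPM at 2h APF, against 442, 421 and 423 TPM at wL3. It stood next to Gapdh2 in abundance at both stages and rose by a log2 fold change of 0.66 ± 0.051 (edgeR adjusted p = 3.4e-05).

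Pyk (PyK in the annotation, FBgn0267385, chr3R:22367536-22372746, forward strand), pyruvate kinase, which forms pyruvate and ATP, had 262, 266 and 259 TPM at 2h APF, against 256, 261 and 262 TPM at wL3. The values of the stages overlapped. The log2 fold change was 0.01 ± 0.028 with a 95% interval of -0.05 to 0.08 (edgeR adjusted p = 0.668). Its sign turned with total library size, where the value was -0.10 and passed the test (edgeR adjusted p = 0.00955) while the median of all genes was -0.16.

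Ldh (FBgn0001258, chr3L:6259105-6262694, reverse strand) had 227, 261 and 245 TPM at 2h APF, against 32.8, 30.5 and 29.3 TPM at wL3. These levels rest on 5132 to 6967 estimated counts per library at 2h APF and 842 to 1098 at wL3. The change was 7.89-fold, a log2 fold change of 2.98 ± 0.076 (95% interval 2.80 to 3.16, edgeR adjusted p = 1.4e-06). Only 2.17% of all genes tested had a larger log2 fold change, which put Ldh at position 195 of 8942. By level it stood at position 512 of 15132 genes at 2h APF and at position 3740 at wL3, whereas Gapdh2 stood at 127 at 2h APF and 134 at wL3.

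**Figure D2:**
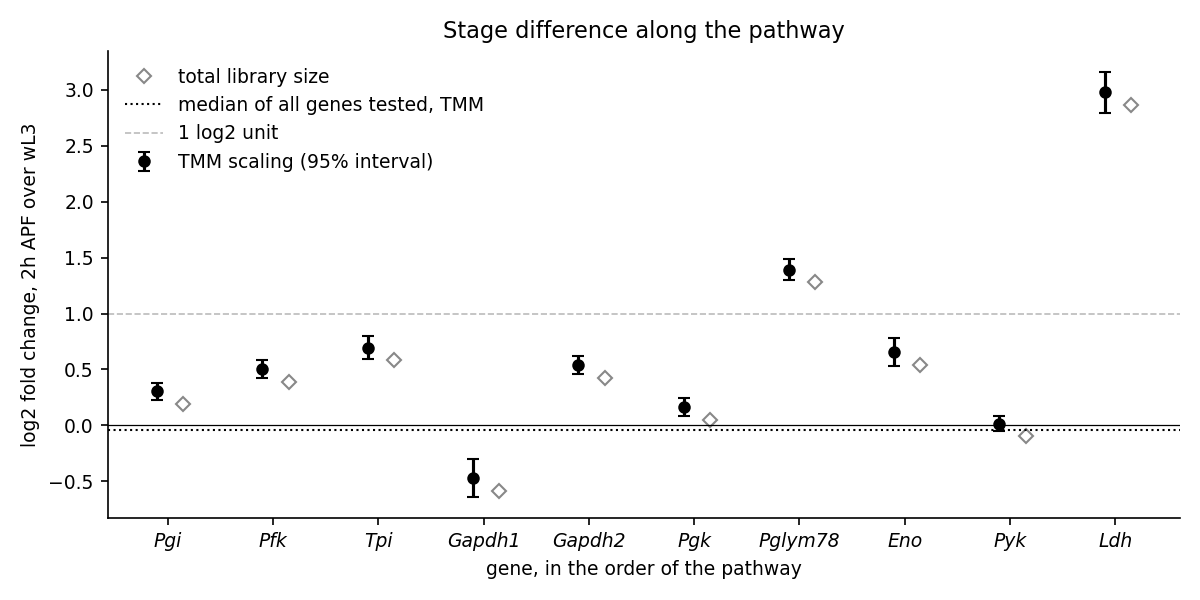
Log2 fold change (2h APF over wL3) of each gene in the order of the pathway, with its 95% interval under TMM scaling (circles) and the value under total library size (diamonds); the dotted line is the median of all genes tested and the dashed line is 1 log2 unit. Ldh at 2.98 and Pglym78 at 1.39 lie beyond the dashed line, Gapdh1 at -0.47 lies below 0, and Pyk moves to -0.10 under total library size.

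The stage difference therefore did not run evenly along the pathway, and ratios within a library show this without scaling between libraries. Ldh and Pyk catalyse consecutive steps, and the Ldh level was 0.866, 0.983 and 0.943 of that of Pyk in TPM at 2h APF, against 0.128, 0.117 and 0.112 at wL3. The ratio was thus close to 1 in the 2h APF libraries, and its mean was 7.83-fold higher at 2h APF (n = 3 each, exact permutation p = 0.1). For Pglym78 over Pgk, the enzyme of the preceding step, the ratio averaged 0.959 ± 0.030 at 2h APF and 0.408 ± 0.0066 at wL3 (SD, n = 3 each, exact permutation p = 0.1). Pglym78 over Eno, the following step, averaged 0.483 ± 0.015 at 2h APF and 0.288 ± 0.0076 at wL3 (SD, n = 3 each, exact permutation p = 0.1).

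**Figure D3:**
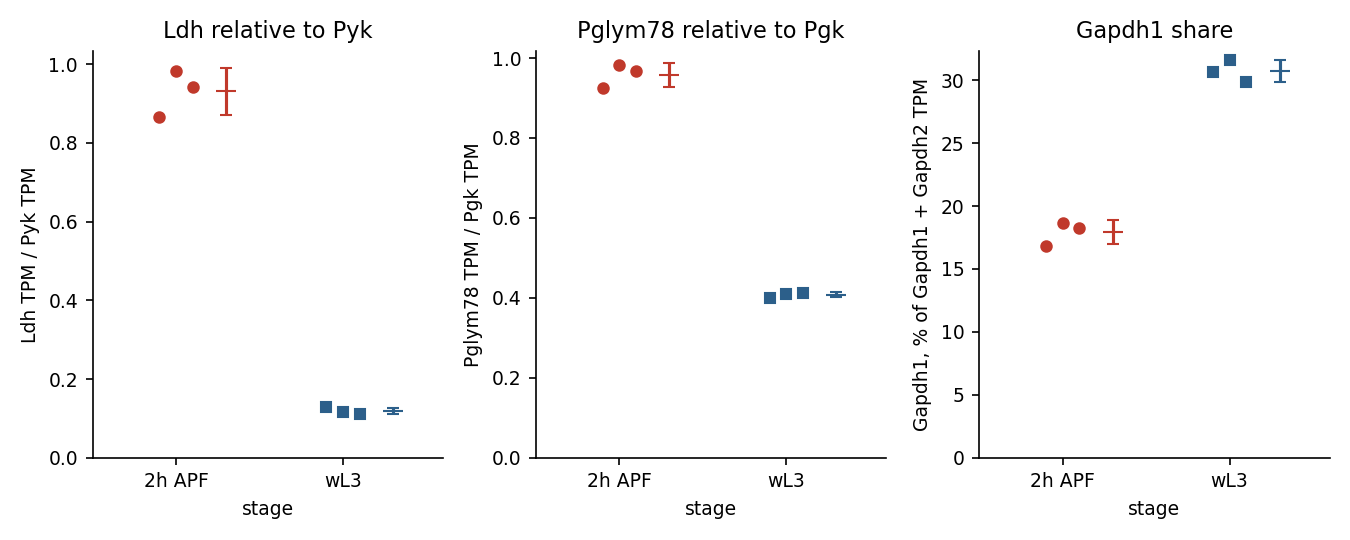
Ratio of Ldh to Pyk TPM, ratio of Pglym78 to Pgk TPM, and Gapdh1 as a percent of Gapdh1 plus Gapdh2 TPM in each library, with the mean and SD of the 3 libraries of 2h APF (circles) and of wL3 (squares). No ratio overlaps between the stages, and the Gapdh1 share is 17.9 ± 0.957% at 2h APF and 30.7 ± 0.865% at wL3.

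The 10 genes together held 4160 ± 122 TPM at 2h APF and 2913 ± 45.3 TPM at wL3 (SD, n = 3 each), which is 0.416% of all TPM at 2h APF and 0.291% at wL3. Ldh made up 5.86 ± 0.287% of this sum at 2h APF and 1.06 ± 0.044% at wL3. The Gapdh2 part, 30.8 ± 0.450% at 2h APF and 30.3 ± 0.207% at wL3, overlapped between the stages (n = 3 each, exact permutation p = 0.2).

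Ordered by TPM at 2h APF, the genes ran Gapdh2, Eno, Tpi, Pgk, Pglym78, Gapdh1, Pyk, Ldh, Pfk and Pgi. Gapdh1 and Pyk overlapped over the libraries, as did Pyk and Ldh, and the other neighbours did not. At wL3 the order was Gapdh2, Eno, Gapdh1, Tpi, Pgk, Pyk, Pglym78, Pgi, Pfk and Ldh, with no overlap between neighbours. Ldh was thus the least abundant of the 10 at wL3, and at 2h APF it overlapped Pyk and exceeded Pfk and Pgi.

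The files hold 34 transcripts of these genes from 25 start sites, and each gene kept 1 leading start site at both stages. Of 30 transcripts tested as features, 15 were higher at 2h APF (20.3% of 17601 transcripts tested), 1 was lower (22.3% of all) and 14 did not pass. Ldh-RA carried 92.4 ± 0.235% of the Ldh TPM at 2h APF and 90.6 ± 1.64% at wL3 (SD, n = 3 each), with a log2 fold change of 2.99 ± 0.090 (SE, edgeR adjusted p = 2.9e-05). Together with Ldh-RB, which starts at the same base (6262694 of chr3L), it made up 96.8 ± 0.526% at 2h APF and 97.0 ± 0.984% at wL3, and these shares overlapped. The stage difference of Ldh was therefore measured mostly on transcripts of a single start site.

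Most of the Pglym78 difference likewise lay on 1 transcript. Pglym78-RB (start 29148362 of chr3R) had 298, 315 and 309 TPM at 2h APF, against 110.3, 109.5 and 104 TPM at wL3, a log2 fold change of 1.49 ± 0.050 (edgeR adjusted p = 2.9e-05). Pglym78-RA (start 29148248) had 18.4, 20.1 and 18.7 TPM at 2h APF, against 13.7, 15.2 and 18.3 TPM at wL3, a log2 fold change of 0.26 ± 0.13 (edgeR adjusted p = 0.158). Its share of the gene was 5.84 ± 0.139% at 2h APF and 12.7 ± 2.03% at wL3, without overlap (SD, n = 3 each, exact permutation p = 0.1). The transcripts overlap in most of their length, so the split of reads between them is an estimate.

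The single transcript that fell was Gapdh1-RB, with a log2 fold change of -0.57 ± 0.072 (edgeR adjusted p = 0.00147), while Gapdh1-RA had -0.24 ± 0.11 (edgeR adjusted p = 0.140). Of the Gapdh2 transcripts, Gapdh2-RC rose by 0.54 ± 0.039 on the log2 scale (edgeR adjusted p = 0.000169), and Gapdh2-RA had -0.00 ± 0.14 (edgeR adjusted p = 0.984). Single transcripts also led the other genes, such as PyK-RB with 99.5% of the Pyk TPM at 2h APF and 99.4% at wL3, and Pgk-RA with 94.6% of the Pgk TPM at 2h APF and 93.2% at wL3.

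The other genes of sugar metabolism were taken from 8 lists, in which 68 genes were tested and 28 were higher and 18 lower at 2h APF by edgeR at an adjusted p under 0.05. Scaled by library totals, 21 were higher and 25 lower, so the balance of directions in these lists depended on the scaling. The shares over all genes tested, 30.6% higher and 36.9% lower, are the background of every count in these lists. Of 12 other genes of glycolysis and gluconeogenesis tested, 4 were higher, 3 lower and 5 did not pass, close to or below the shares over all genes, with a median log2 fold change of 0.32. Hex-A, the hexokinase of the first step, had 74.5, 79.5 and 80.3 TPM at 2h APF, against 65.6, 65.2 and 68.8 TPM at wL3 (log2 fold change 0.23, edgeR adjusted p = 0.00242). Ald1, the aldolase between Pfk and Tpi, had 361, 399 and 383 TPM at 2h APF, against 278, 285 and 268 TPM at wL3 (0.40, edgeR adjusted p = 0.000227). Both thus rose without overlap and by less than 1 log2 unit, as most of the 10 genes did.

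The genes past 1 log2 unit in this list belong to gluconeogenesis. PCB, pyruvate carboxylase, had 34.9, 52.1 and 42.5 TPM at 2h APF, against 13.6, 17.9 and 17.6 TPM at wL3 (log2 fold change 1.41 ± 0.17, edgeR adjusted p = 0.000258). G6P, a glucose phosphatase, rose at a low level, with 1.76 ± 0.154 TPM at 2h APF and 0.762 ± 0.214 TPM at wL3 (SD, n = 3 each; 1.20, edgeR adjusted p = 0.0101). Pepck1, phosphoenolpyruvate carboxykinase, fell, with 5.27, 6.78 and 4.93 TPM at 2h APF, against 31.0, 91.8 and 71.3 TPM at wL3 (-3.51 ± 0.41, edgeR adjusted p = 0.000236). Its paralog Pepck2 fell as well, by -3.34 on the log2 scale (edgeR adjusted p = 0.000975). Across the wL3 libraries, both were lowest in replicate 1 and highest in replicate 2. The sums of the fat body, muscle and hemocyte markers had the same order, while the glue sum was highest in replicate 3. In wL3 replicate 1, the fat body sum (23.7 TPM) was below that of every 2h APF library (98.9 to 403 TPM). Pepck1 (31.0 TPM) and the muscle, hemocyte and glue sums (66.7, 50.5 and 187 TPM) of this library were above those of every 2h APF library. The part of cells of these tissues in the changes of Pepck1 and Pepck2 was not tested.

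**Figure D4:**
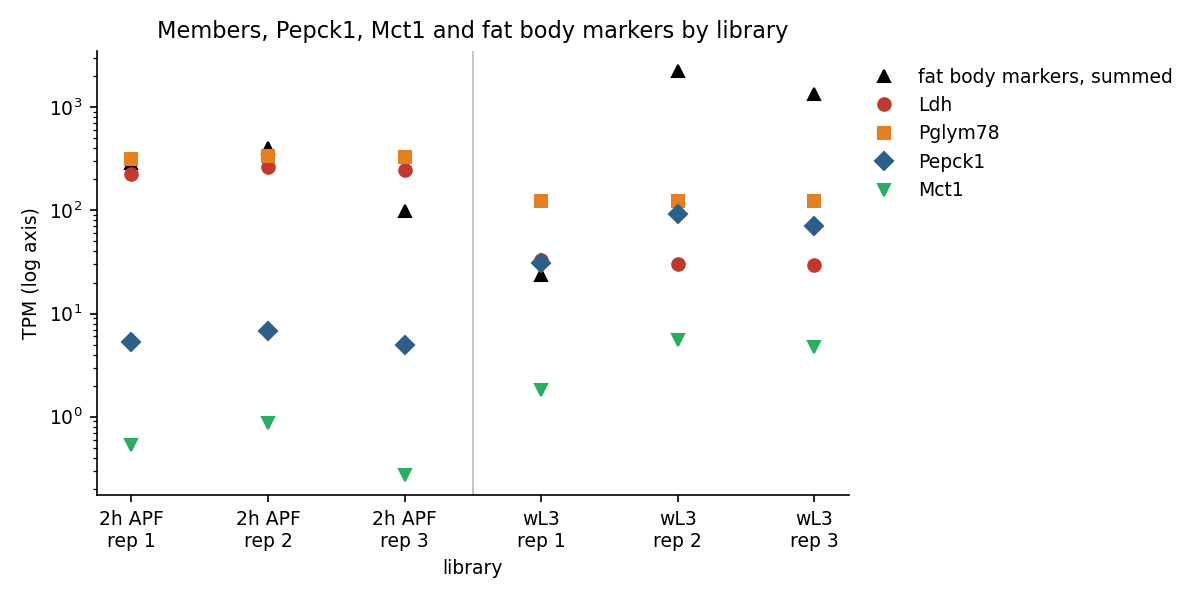
Level in TPM (log axis) of Ldh, Pglym78, Pepck1 and Mct1 and of the 6 fat body markers summed, in each library. The fat body sum spans 23.7 to 2247 TPM among the wL3 libraries, where Pepck1 spans 31.0 to 91.8 TPM, while Ldh spans 29.3 to 32.8 TPM and Pglym78 122 to 125 TPM. At 2h APF the fat body sum spans 98.9 to 403 TPM and Pepck1 4.93 to 6.78 TPM.

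Ldh, Pglym78, Pgi, Pfk, Tpi, Gapdh2 and Eno were higher and Gapdh1 lower by edgeR with wL3 replicate 1 as the only wL3 library, and Pgk did not pass. The part of RNA from other tissues in the members' differences was not tested.

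Genes of sugar supply and of sugar storage, taken as 1 list, were higher or did not pass. Of 9 tested, 6 were higher and 0 lower by edgeR, with a median log2 fold change of 0.36. The number lower was 1 at an unadjusted p under 0.05 (Tps1, trehalose phosphate synthase, with 0.191, 0.0836 and 0.0458 TPM at 2h APF, against 0.013, 1.97 and 1.14 TPM at wL3), 1 by DESeq2 and 0 by limma. Treh, trehalase, which splits the blood sugar of insects into glucose, had 72.5, 81.3 and 82.4 TPM at 2h APF, against 36.3, 39.9 and 41.9 TPM at wL3 (1.00 ± 0.071, edgeR adjusted p = 2.0e-05). The sugar transporter gene Glut1 had 45.3, 45.3 and 42.3 TPM at 2h APF, against 25.8, 21.4 and 24.4 TPM at wL3 (0.70, edgeR adjusted p = 8.9e-05). GlyP, glycogen phosphorylase, and GlyS, glycogen synthase, rose together by 0.25 and 0.31 on the log2 scale (edgeR adjusted p = 0.000825 and 0.000625). UGP, which makes the activated sugar for glycogen, had 0.11 (edgeR adjusted p = 0.0265), a call lost under several alternatives and with -0.00 under total library size.

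The pentose phosphate pathway branches off glycolysis and yields NADPH and ribose. Of its 7 genes, 1 was higher (30.6% of all genes), 4 were lower (36.9% of all) and 2 did not pass, with a median log2 fold change of -0.28. Pgd, phosphogluconate dehydrogenase, was the gene that rose, by 0.29 on the log2 scale (edgeR adjusted p = 0.00302). CG8036, a transketolase, had 271, 269 and 282 TPM at 2h APF, against 370.1, 373 and 363 TPM at wL3 (-0.43, edgeR adjusted p = 2.9e-05). Rpi, ribose phosphate isomerase, fell by -0.29 on the log2 scale (edgeR adjusted p = 0.000863), and Taldo, transaldolase, had 0.03 (edgeR adjusted p = 0.491). Zw, glucose phosphate dehydrogenase, was lower by edgeR (-0.28, adjusted p = 0.0312), but did not pass by DESeq2 (adjusted p = 0.089) or on counts rescaled from TPM (edgeR adjusted p = 0.0671).

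Besides lactate dehydrogenase, the glycerol phosphate and malate-aspartate shuttles recycle NAD+. Of 6 such genes tested, 2 were higher, 1 was lower and 3 did not pass. The lower gene was Gpdh3, with 8.16 ± 0.467 TPM at 2h APF and 11.8 ± 0.394 TPM at wL3 (SD, n = 3 each). Its log2 fold change was -0.53 (edgeR adjusted p = 5.6e-05). Got1 and Got2, aspartate aminotransferases, had 0.13 and 0.14 on the log2 scale (edgeR adjusted p = 0.00571 and 0.0219), and both calls were lost under total library size. Mdh1, cytosolic malate dehydrogenase, had -0.10 (edgeR adjusted p = 0.216). Gpdh1, glycerol phosphate dehydrogenase, had 21.2, 19.8 and 22.1 TPM at 2h APF, against 17.5, 19.2 and 21.4 TPM at wL3, and overlapped between the stages. The Ldh to Gpdh1 ratio in TPM was 11.7 ± 1.37 at 2h APF and 1.61 ± 0.252 at wL3 (SD, n = 3 each, exact permutation p = 0.1).

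Of 4 carriers of lactate and pyruvate, 1 was higher, 1 lower and 2 did not pass. The monocarboxylate transporter gene chk had 16.6, 16.4 and 15.05 TPM at 2h APF, against 8.84, 9.001 and 8.86 TPM at wL3 (0.84 ± 0.045, edgeR adjusted p = 6.0e-06). Mct1, of the same family, had 0.529, 0.876 and 0.272 TPM at 2h APF, against 1.83, 5.51 and 4.72 TPM at wL3 (-2.84, edgeR adjusted p = 0.00291). With wL3 replicate 1 as the only wL3 library, the Mct1 value was -1.74 and did not pass (edgeR adjusted p = 0.0569). Mpc1, of the mitochondrial pyruvate carrier, had -0.20 (edgeR adjusted p = 0.118).

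The mitochondrial genes downstream of pyruvate were mixed. Of 6 pyruvate dehydrogenase genes, 2 were higher, 2 lower and 2 did not pass. The subunit genes Pdha and Pdhb rose by 0.35 and 0.39 on the log2 scale (edgeR adjusted p = 0.00077 and 6.4e-05), and CG7430, dihydrolipoyl dehydrogenase, had -0.03 (edgeR adjusted p = 0.596). Pdk, the kinase that switches the complex off, had 9.78, 9.76 and 9.85 TPM at 2h APF, against 18.1, 19.4 and 19.4 TPM at wL3 (-0.99 ± 0.041, edgeR adjusted p = 2.6e-06). Pdp, the phosphatase of the complex, was also lower, with 25.3, 26.5 and 26.5 TPM at 2h APF, against 31.1, 33.8 and 30.0 TPM at wL3 (-0.27, edgeR adjusted p = 0.00312).

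Of 16 citric acid cycle genes tested, 8 were higher (30.6% of all genes), 5 were lower (36.9% of all) and 3 did not pass, with a median log2 fold change of 0.02. Of the 8, Scsalpha1, SdhD and mAcon1 did not pass under total library size, where mAcon1 had -0.03, and of the 5, SdhB did not pass by DESeq2 (-0.14, adjusted p = 0.0534). The citrate synthase gene kdn had 119, 119 and 121 TPM at 2h APF, against 70.7, 67.4 and 70.6 TPM at wL3 (0.78 ± 0.034, edgeR adjusted p = 2.9e-06). Scsalpha1, of succinyl-CoA synthetase, had 0.16 (edgeR adjusted p = 0.00887), Fum1, fumarase, fell by -0.24 (edgeR adjusted p = 0.000924), and SdhC, of succinate dehydrogenase, had -0.04 (edgeR adjusted p = 0.372). The direction thus differed from gene to gene of the cycle.

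**Figure D5:**
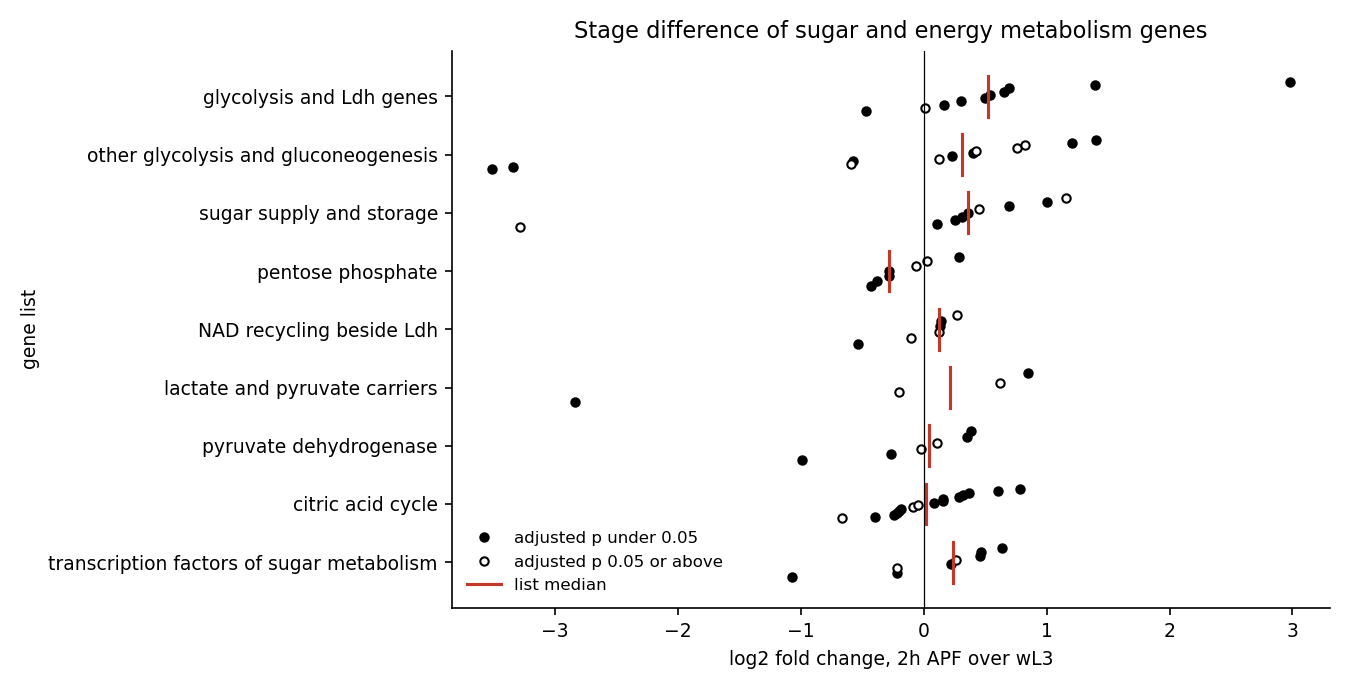
Log2 fold change (2h APF over wL3) of every tested gene of the 10 members and of the 8 other lists, filled where the edgeR adjusted p was under 0.05, with a red line at the median of each list. The median is 0.52 for the glycolysis and Ldh genes, -0.28 for the pentose phosphate genes and 0.02 for the citric acid cycle genes.

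Of 8 transcription factor genes tested that act on sugar metabolism, 4 were higher, 2 lower and 2 did not pass. ERR, the nuclear receptor named above, had 16.3, 16.5 and 17.3 TPM at 2h APF, against 14.2, 14.7 and 14.2 TPM at wL3 (0.22, edgeR adjusted p = 0.00384, lost under total library size). The partner of the hypoxia factor, tgo, rose by 0.64 and crc, the fly ATF4, by 0.47 on the log2 scale (edgeR adjusted p = 1.6e-05 and 1.9e-05). Myc, a growth regulator, fell, with 28.6, 27.6 and 29.4 TPM at 2h APF, against 56.1, 62.3 and 60.05 TPM at wL3 (-1.07 ± 0.035, edgeR adjusted p = 1.6e-06). Transcript levels of these factors do not measure their activity.

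Of the 46 calls in the other lists, 10 did not pass with wL3 replicate 1 as the only wL3 library: UGP, Zw, Pgd, Got1, Got2, Mct1, mAcon1, Scsalpha1, SdhD and ERR. The calls of 5 genes were lost when 1 library was left out. Got2 did not pass without 2h APF replicate 3 (log2 fold change 0.11, edgeR adjusted p = 0.0715) or wL3 replicate 3 (0.11, edgeR adjusted p = 0.082). UGP did not pass without 2h APF replicates 1 (0.09, edgeR adjusted p = 0.0751) or 3 (0.10, edgeR adjusted p = 0.0756) and without wL3 replicates 2 (0.12, edgeR adjusted p = 0.0733) or 3 (0.10, edgeR adjusted p = 0.091). Zw did not pass without 2h APF replicates 1 or 3 or wL3 replicates 1 or 2 (-0.30 to -0.20, edgeR adjusted p = 0.0648 to 0.107). The values of mAcon1 were 0.07 to 0.09 without 2h APF replicates 2 or 3 or wL3 replicates 2 or 3 (edgeR adjusted p = 0.0578 to 0.113). SdhB had -0.10 without wL3 replicate 1 (edgeR adjusted p = 0.0518), against -0.18 with all libraries (edgeR adjusted p = 0.00924). The values of UGP, Got2, Zw and mAcon1 moved by less than 1.5 times in these fits, which have fewer libraries.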

How the data were processed

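Leg disc RNA was sequenced with a strand-specific polyA+ protocol in 3 libraries of 2h APF and 3 of wL3. The authors assigned paired-end reads with kallisto to transcripts of Ensembl 74 and modENCODE lincRNAs (the submitters' processing notes name dm3) and deposited, for each of 42506 targets in a library, an estimated count and a TPM, without normalization between libraries; versions are not given in the sources used here. The authors' comparison with Sleuth was not used.

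Targets were matched by FlyBase identifier to Ensembl BDGP6.54, the build of all coordinates: 27011 of 29173 FlyBase targets matched, and 13333 other targets did not. Gene counts are the rounded sums of estimated counts over matched targets. Genes with identical values (57 groups, 184 genes, at least 10 counts) were summed as 1, leaving 15132. The test for the stage was that of edgeR 4.0.16 under R 4.3.3 (TMM, filterByExpr, quasi-likelihood test, Benjamini-Hochberg over 8942 genes), with no replicate block. The SE is the log2 fold change divided by the square root of F. Scripts were tested on simulated counts. Single ratios were compared by two-sided exact permutation tests.

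Alternatives were DESeq2 1.42.0, limma 3.58.1 on log2 TPM with pseudocounts of 0.5 and 0.1 (mean TPM of at least 0.5), total library size, counts rescaled from TPM, 2 other count filters, unmatched targets as features, a test against 1 log2 unit (glmTreat), the replicate block and leaving out each library. Keeping wL3 replicate 1 alone was chosen after seeing the data. Members and lists were chosen with earlier results of these data known. Named were the 10 members, listed genes past both thresholds and the 3 of each list with the highest TPM. Glut1, Gpdh1, Gpdh3, Pdk, Pdp, kdn, ERR, Tps1, Pgd, Zw, mAcon1, SdhB and SdhD were chosen after their values were seen. Also named outside that rule were the paralogs Hex-C, Hex-t1, Hex-t2, Ald2, Pglym87, CG7362, CG9961, CG7069 and CG7059. The listed genes sima, Hph and Sgs4 were not analysed here, and promoter motifs were not used here. Python 3.11.15 with pandas 2.3.3, numpy 2.4.6 and scipy 1.17.1 served for tables, and matplotlib 3.10.9 for plots.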

Additional observations from a re-analysis of the deposited data

How the results depend on the processing

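Of the log2 fold changes of the 10 members under the alternatives, 158 kept their direction and side of the threshold, 9 no longer passed and 3 turned, all 3 of Pyk. Pyk had -0.10 under total library size, -0.00137 with wL3 replicate 1 as the only wL3 library, and between -0.000599 and 0.052 when each library was left out. Total library size moved the median of all genes to -0.16, against -0.04 under TMM, and gave 2 members lower instead of 1. Tested against 1 log2 unit (glmTreat), 530 genes were higher and 474 lower among all genes, 2 members were higher and 0 lower, and 1 gene of the other lists was higher and 3 lower; members below that size cannot pass this test. The members lower numbered 0 by glmTreat against 1 at an adjusted p under 0.05, and 1 by DESeq2. Lower member transcripts numbered 1 to 2 when each library was left out, with 2 without wL3 replicate 3. Same-numbered libraries of the stages deviated with correlations of -0.003, 0.147 and -0.255, so the numbers were not taken as pairs; with a replicate block, 8 members were higher and 1 lower, 2595 genes were higher and 3064 lower, and not every library correlated best with its own number. Small differences such as that of Pgk depend on the scaling, and the cause was not tested. Levels of low genes such as Pepck2 and Mct1 rest on few counts (12 to 34 for Pepck2 and 18 to 53 for Mct1 at 2h APF).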

Other observations

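Paralogs of the glycolytic genes other than Gapdh1 and Gapdh2 were at 0 or low in these leg discs. Ald2, Pglym87 and CG7362 had 0 counts in every library of both stages, which does not show that they were silent. The hexokinase genes Hex-C, Hex-t1 and Hex-t2 had at most 2 counts in any library. Of the paralogs that were tested, CG9961 had 2.07 ± 0.043 TPM at 2h APF and 1.90 ± 0.039 TPM at wL3, and CG7069 had 0.433 ± 0.091 TPM at 2h APF and 0.321 ± 0.061 TPM at wL3 (SD, n = 3 each). Neither passed the edgeR test (adjusted p = 0.598 for CG9961 and 0.268 for CG7069). CG7059 had 6.73 TPM in 2h APF replicate 2, against 1.05 to 1.14 TPM in the other 2h APF libraries and 1.42 to 1.96 TPM at wL3.

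The genes that lie against members on the opposite strand had their own stage levels. Bacc, which overlaps Pgk by 624 bases outside exons, had 1288 to 1365 TPM at 2h APF and 1814 to 1909 TPM at wL3. Rrp40, which overlaps Eno by 905 bases, had 34.2 to 36.2 TPM at 2h APF and 48.5 to 51.3 TPM at wL3. Of these bases, 362 are exonic in both genes, and 0 of them lie in exons of the main Eno transcript. Both Bacc and Rrp40 were lower at 2h APF in all libraries, the reverse of Pgk and Eno. In CPM, 40% of all genes tested were lower without overlap.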
